A study of Homo sapiens with 4 samples.

Results

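The transcripts of 10 genes of intestinal differentiation were followed in HCT116, a human colorectal carcinoma cell line, with and without 5-azacytidine. The genes are the intestinal transcription factors CDX1 and CDX2, the surface and structural genes of absorptive colonocytes KRT20, VIL1 and CEACAM5, and the secreted products of mucous cells MUC2, MUC5AC, TFF1, TFF2 and TFF3. They were chosen by name as colonocyte and goblet cell genes. Their probes were found by matching the RefSeq accession that each probe carries in the scanner output to the annotation of GRCh38.p14. A probe was matched for 9 of the 10 genes, 15 probes in all, among 50594 probes and 21611 gene symbols on the arrays. MUC5AC had no matched probe and was not analysed here.

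HCT116 cells had been separated by repeated migration through a transwell membrane into MG cells, which migrated, and non-MG cells, which did not. Both subpopulations are populations enriched from 1 cell line, not clones, and each was treated with 5 µM 5-azacytidine or with vehicle for 48 h. The 4 groups, non-MG cells with vehicle, non-MG cells with 5-azacytidine, MG cells with vehicle and MG cells with 5-azacytidine, have 1 array each. There are therefore no replicates, no test was made, and every value below is a description of these 4 arrays.

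The lining of the intestine is renewed from stem cells at the base of the crypts, whose daughters mature into absorptive cells or into secretory cells such as goblet cells. CDX1 and CDX2 are homeodomain transcription factors that give the epithelium its intestinal identity. Goblet cells release gel-forming mucins, of which MUC2 is the main one of the intestine, together with trefoil peptides, small secreted proteins that take part in mucosal repair. 5-azacytidine is a cytidine analogue that is built into nucleic acids and traps DNA methyltransferases, so that DNA methylation is lost as cells divide.

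Signals are given as the background-corrected intensity of the Cy3 label. For comparisons between arrays, a level is the log2 of this intensity minus the 75th percentile of its array, so that a level of 0 is the 75th percentile, and a log2 ratio is a difference of 2 levels, written MG/non-MG for the cell types and 5-azacytidine/vehicle for the treatment. Spot error, given after each ratio, is the SD between spots of probes that are spotted 10 times on each array, combined over both arrays of the ratio. It covers spotting and scanning, not differences between cultures or labellings. A probe was called detected where the scanner software marked it as well above background. Between 21368 and 21868 probes were detected per array, the 75th percentile of intensity lay between 75.2 and 98.7, and the lowest intensity of a detected probe lay between 9.95 and 11.8. All 4 arrays were on 1 slide, with non-MG cells in row 1, MG cells in row 2, vehicle in column 3 and 5-azacytidine in column 4, so the place of an array on the slide and its group cannot be told apart. The epithelial identity of the samples was checked with 8 markers, EPCAM, KRT8, KRT18, KRT19, CDH1, CLDN3, CLDN4 and CLDN7. All 12 of their probes were detected on every array, with a summed signal of 1468 to 1663 times the 75th percentile. Some of these markers were lower in MG cells and others were not. EPCAM had MG/non-MG log2 ratios of 0.05 with vehicle and 0.05 with 5-azacytidine. KRT8 had 0.33 and 0.08, KRT18 0.14 and 0.28, KRT19 -0.26 and -0.20, and CLDN7 -0.48 and -0.18, all within 1.5-fold. CLDN3, a tight junction protein, had MG/non-MG log2 ratios of -0.85 with vehicle and -0.85 with 5-azacytidine, and CLDN4, another, had -0.73 and -0.90. Those of CDH1, which encodes E-cadherin, were -0.66 and -0.49, of which the latter was short of 1.5-fold. The paper reported CDH1 mRNA as unchanged in MG cells, by array and by qPCR. With median centring CLDN3 and CLDN4 had -0.65 and -0.54 with vehicle, where CLDN4 fell short of 1.5-fold. This centring raised the MG/non-MG ratios with vehicle by 0.19, so CDH1 fell short of 1.5-fold with vehicle too. The CDH1 ratios given here rest on 1 array per group.

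Of the 15 probes of the differentiation genes, 5 were detected on all 4 arrays, 5 on 1 to 3 arrays and 5 on none. CDX1, CDX2, MUC2, TFF1 and KRT20 each had 1 probe detected on all arrays. TFF2 and TFF3 were detected after 5-azacytidine and not with vehicle. VIL1 and CEACAM5 were not detected on any array. A difference was counted where it passed 1.5-fold between genes detected on all 4 arrays. Where a probe was detected on 1 array of a pair only, the ratio is a bound, in which the dimmer side is set at the lowest detected signal of its array, or at the value of the probe itself if that lay higher.

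**Figure D1:**
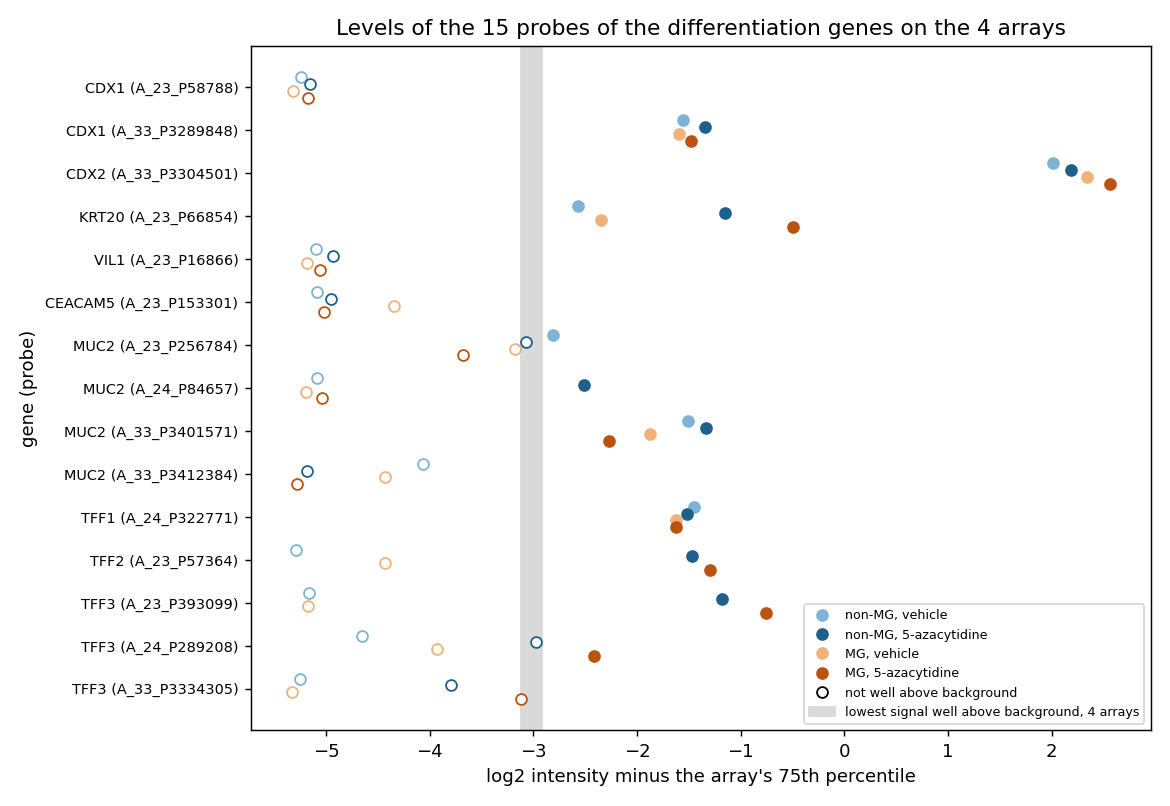
Level of each of the 15 matched probes on the 4 arrays, on the x axis as log2 intensity minus the 75th percentile of the array, with filled points for detected probes and open points for probes not well above background. The TFF2 probe and a TFF3 probe move from open points left of the grey band with vehicle to filled points right of it with 5-azacytidine, KRT20 moves right within the detected range, and CDX2 is the only gene whose points all lie above 0.

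CDX2, the master regulator of intestinal identity in the adult epithelium, had signals well clear of background on every array. Its intensity was 350 in non-MG cells with vehicle, 341 in non-MG cells with 5-azacytidine, 501 in MG cells with vehicle and 568 in MG cells with 5-azacytidine. Both MG arrays were above both non-MG arrays, also after scaling, where the levels ran from 2.01 to 2.34 with vehicle and from 2.18 to 2.56 with 5-azacytidine. The MG/non-MG log2 ratio was 0.33 (spot error 0.09) with vehicle and 0.38 (spot error 0.09) with 5-azacytidine, within 1.5-fold on both counts. With median centring of the arrays, the ratio after 5-azacytidine was 0.63 and passed 1.5-fold. The 5-azacytidine/vehicle log2 ratio was 0.17 (spot error 0.09) in non-MG cells and 0.21 (spot error 0.09) in MG cells.

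CDX1, a paralogue of CDX2 in the same epithelium, was measured by 1 of its 2 matched probes. The intensity of that probe was 29.6 in non-MG cells with vehicle, 29.6 in non-MG cells with 5-azacytidine, 32.7 in MG cells with vehicle and 34.5 in MG cells with 5-azacytidine. All log2 ratios lay between -0.14 and 0.21, each within its spot error of 0.18 to 0.28. The other CDX1 probe stayed between 2.12 and 2.67 on the 4 arrays and was not detected on any, so the 2 probes of the gene disagree on whether it was expressed.

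KRT20 is the keratin of mature intestinal and gastric epithelium, and of the 5 genes detected on all arrays it was the 1 that passed 1.5-fold with 5-azacytidine in both cell types. Its intensity was 14.6 in non-MG cells with vehicle and 33.8 in non-MG cells with 5-azacytidine. In MG cells it was 19.4 with vehicle and 68.4 with 5-azacytidine. Both arrays with 5-azacytidine were above both arrays with vehicle. Its 5-azacytidine/vehicle log2 ratio was 1.42 (spot error 0.35) in non-MG cells, a 2.67-fold difference, and 1.85 (spot error 0.22) in MG cells, a 3.60-fold difference. Among the 15694 genes detected on all 4 arrays, 30 had a larger ratio than KRT20 in non-MG cells and 34 in MG cells. With normexp background correction, which pulls low signals together, the ratio was 0.48 in non-MG cells, short of 1.5-fold, and 0.71 in MG cells. With vehicle the MG/non-MG log2 ratio was 0.23 (spot error 0.38). With 5-azacytidine it was 0.66 (spot error 0.16), and 0.24 with normexp correction. The difference between both responses, MG minus non-MG, was 0.43 (spot error 0.41) and was not tested.

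VIL1 and CEACAM5, the other absorptive cell genes of the set, were not measurable. VIL1 encodes villin, the actin bundling protein of the microvilli, and its probe had intensities of 2.54 in non-MG cells with vehicle, 2.46 in non-MG cells with 5-azacytidine, 2.71 in MG cells with vehicle and 2.90 in MG cells with 5-azacytidine. CEACAM5 encodes carcinoembryonic antigen, the serum marker of colorectal cancer. Its probe had intensities of 2.57 and 2.44 in non-MG cells with vehicle and 5-azacytidine, and of 4.86 and 2.98 in MG cells. Both genes stayed below the lowest detected signal on every array, at 9.95 to 11.8, and no ratio is given for them.

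The bases before the start of KRT20 are shown because KRT20 was higher with an inhibitor of DNA methyltransferases, enzymes whose targets are CpG dinucleotides. Those of CDX2, which was detected everywhere and stayed within 1.5-fold, and of CEACAM5, which was not detected anywhere, are shown beside them. They are the 250 bases before the gene's start in RefSeq annotation of GRCh38.p14, on the strand of the gene, with CpG dinucleotides and the letters TTTAT or their reverse complement ATAAA in capitals. TTTAT is the core of the caudal motif that CDX proteins bind. KRT20 is at chr17:40885243-40885492 on the minus strand, CDX2 at chr13:27969316-27969565 on the minus strand and CEACAM5 at chr19:41708376-41708625 on the plus strand.
KRT20: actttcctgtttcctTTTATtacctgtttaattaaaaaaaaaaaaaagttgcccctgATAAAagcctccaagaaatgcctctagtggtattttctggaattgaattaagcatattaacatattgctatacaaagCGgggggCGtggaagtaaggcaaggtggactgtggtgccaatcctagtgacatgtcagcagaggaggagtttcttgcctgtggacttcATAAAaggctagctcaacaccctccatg
CDX2: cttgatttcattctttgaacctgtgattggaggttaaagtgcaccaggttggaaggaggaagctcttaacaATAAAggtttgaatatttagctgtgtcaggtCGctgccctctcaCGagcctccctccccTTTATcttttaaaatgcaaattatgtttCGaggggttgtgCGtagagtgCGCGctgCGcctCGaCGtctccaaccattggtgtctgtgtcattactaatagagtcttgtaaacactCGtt
CEACAM5: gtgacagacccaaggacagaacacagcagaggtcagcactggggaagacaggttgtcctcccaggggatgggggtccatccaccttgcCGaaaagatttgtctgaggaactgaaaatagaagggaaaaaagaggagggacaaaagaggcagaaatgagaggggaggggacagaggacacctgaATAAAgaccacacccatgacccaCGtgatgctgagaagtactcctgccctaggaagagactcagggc
The KRT20 window holds 2 CpGs, at 116 and 109 bases before the start. CEACAM5 also holds 2 and CDX2 holds 10, where the median over 27305 promoters of this length is 11. MUC2, the remaining gene with a listed promoter, has 6 in its window. The letters TTTAT occur on either strand 3 times before KRT20, 2 times before CDX2 and 1 time before each of CEACAM5 and MUC2. At least 1 occurrence is found in 33.7% of all promoters and at least 3 in 5.41%. The occurrence 28 bases before KRT20 lies where a TATA box would lie and overlaps TATA-like letters. KRT20 and CEACAM5, of which the first was higher with 5-azacytidine and the other was not detected, hold the same number of CpGs in these windows. The windows describe sequence only, and methylation was not measured on these arrays.

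TFF2 and TFF3 were the genes that differed between not detected and detected. TFF2 is the trefoil peptide of gastric mucous neck cells and TFF3 that of intestinal goblet cells. The TFF2 probe had an intensity of 2.22 in non-MG cells with vehicle and 27.2 in non-MG cells with 5-azacytidine. In MG cells it had 4.56 with vehicle and 39.2 with 5-azacytidine. Both arrays with vehicle were below the lowest detected signal and both arrays with 5-azacytidine were above it. TFF2 was thereby at least 3.13-fold higher with 5-azacytidine in non-MG cells and at least 3.50-fold higher in MG cells. Between the cell types with 5-azacytidine, where both arrays detected it, the MG/non-MG log2 ratio was 0.17 (spot error 0.24).

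TFF3 had 3 matched probes, of which 1 was detected on both arrays with 5-azacytidine and on neither with vehicle, as for TFF2. Its intensity was 2.44 in non-MG cells with vehicle, 33.0 in non-MG cells with 5-azacytidine, 2.74 in MG cells with vehicle and 57.2 in MG cells with 5-azacytidine. It was at least 3.81-fold higher with 5-azacytidine in non-MG cells and at least 5.10-fold higher in MG cells. With 5-azacytidine the MG/non-MG log2 ratio was 0.43 (spot error 0.18), within 1.5-fold. The second TFF3 probe had 3.45 and 9.54 in non-MG cells and 6.50 and 18.0 in MG cells, with vehicle and 5-azacytidine in each. Only the last of these was detected, which makes this signal at least 1.61-fold higher than with vehicle and at least 1.41-fold higher than in treated non-MG cells. The remaining probe had 2.29 and 5.41 in non-MG cells and 2.46 and 11.1 in MG cells, and was not detected on any array. None of the 3 probes was detected with vehicle in either cell type.

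Of the 15 probes, 9 were not detected on either array with vehicle, and 2 of these 9, those of TFF2 and TFF3, were detected on both arrays with 5-azacytidine. Over all probes not detected on either array with vehicle, 0.773% (214 of 27675) were detected on both arrays with 5-azacytidine. In a bulk culture, more cells that express a gene and more RNA per expressing cell cannot be told apart.

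TFF1, the trefoil peptide of gastric surface mucous cells, is the neighbour of TFF2 and TFF3 in the order of genes, where the 3 follow each other as TFF3, TFF2 and TFF1. Its intensity was 31.8 in non-MG cells with vehicle, 26.3 in non-MG cells with 5-azacytidine, 32.1 in MG cells with vehicle and 31.2 in MG cells with 5-azacytidine. It was detected on every array and its levels differed by 0.18 at most on the log2 scale. The 5-azacytidine/vehicle log2 ratios were -0.07 (spot error 0.28) in non-MG cells and -0.01 (spot error 0.24) in MG cells. TFF1 thus stayed near one level on the arrays between which TFF2 and TFF3 passed from not detected to detected.

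MUC2, the gel-forming mucin of goblet cells, had 4 matched probes that did not move alike. The probe detected on all arrays had intensities of 30.6 in non-MG cells with vehicle, 29.8 in non-MG cells with 5-azacytidine, 26.9 in MG cells with vehicle and 19.98 in MG cells with 5-azacytidine. Both MG arrays were below both non-MG arrays. By this probe the MG/non-MG log2 ratio was -0.37 (spot error 0.28) with vehicle and -0.94 (spot error 0.28) with 5-azacytidine. The second ratio is 1.91-fold and passed the threshold, but it was -0.34 with normexp correction. Its 5-azacytidine/vehicle ratio was 0.17 (spot error 0.28) in non-MG cells and -0.39 (spot error 0.28) in MG cells. The second probe was detected in non-MG cells with vehicle alone, at 12.4, against 8.97, 10.9 and 7.52 on the arrays of non-MG cells with 5-azacytidine, MG cells with vehicle and MG cells with 5-azacytidine. It was at least 1.23-fold higher in non-MG than in MG cells with vehicle. Another probe was detected in non-MG cells with 5-azacytidine alone, at 13.2, against 2.56 to 2.93 elsewhere, at least 1.52-fold above vehicle and at least 1.43-fold above MG cells with 5-azacytidine. The remaining probe stayed between 2.07 and 5.20 and was not detected. None of the 3 dim probes was detected on an MG array. They do not share 1 direction for 5-azacytidine in non-MG cells.

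**Figure D2:**
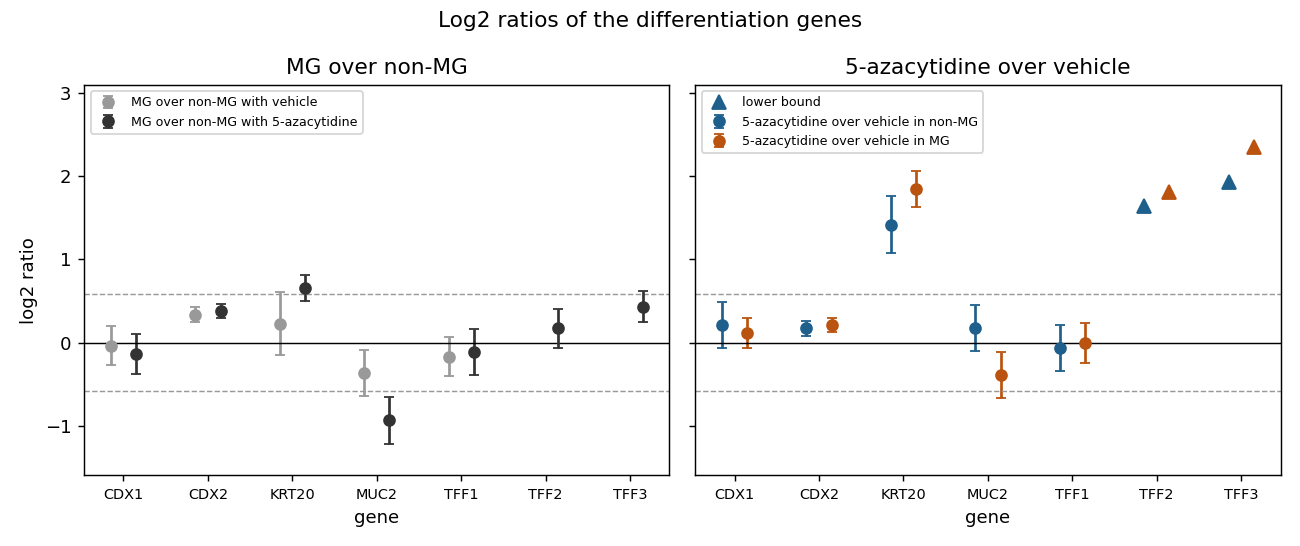
MG/non-MG log2 ratios (left) and 5-azacytidine/vehicle log2 ratios (right), with points for ratios measured on both arrays, bars for spot error, triangles for lower bounds and dashed lines at 1.5-fold. On the right KRT20 has ratios of 1.42 and 1.85 and the TFF2 and TFF3 bounds lie above 1.5-fold, and on the left KRT20 and MUC2 pass the dashed lines on opposite sides with 5-azacytidine.

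Taken over the 5 genes detected on all arrays, MG and non-MG cells differed past 1.5-fold in 0 genes with vehicle, where 5.68% of all 15694 genes were higher and 8.23% lower in MG cells. With 5-azacytidine, KRT20 was higher and MUC2 lower, against 5.74% higher and 7.34% lower of all genes. No gene of the 5 passed in the same direction in both cell type comparisons, which 2.71% of all genes did as higher and 3.8% as lower. With 5-azacytidine in non-MG cells, 1 gene, KRT20, was higher and 0 were lower, against 1.89% and 1.67% of all genes. In MG cells KRT20 was again the 1 higher gene and 0 were lower, against 3.01% and 2.09%. KRT20 was the 1 gene that was higher in both, as 0.809% of all genes were, and 0 of the 5 were lower in both, as 0.299% were. The median log2 ratio of the 5 genes was -0.04 with vehicle and -0.11 with 5-azacytidine between the cell types, and 0.17 in non-MG and 0.11 in MG cells for the treatment. The medians over all genes were -0.01, 0.02, -0.04 and -0.02. TFF2 and TFF3 are left out of these counts because they are not detected with vehicle, and a filter that takes them in would take them in for being high with 5-azacytidine.

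Median centring of the arrays moved the median MG/non-MG ratio of all genes by 0.19 with vehicle and by 0.26 with 5-azacytidine. The higher genes made up 40.8% of those past 1.5-fold with vehicle and 77.9% after median centring, and 43.9% and 88.3% with 5-azacytidine. For the treatment they made up 53.1% and 26.9% in non-MG cells and, in MG cells, 59.0% and 51.1%. The 5-azacytidine/vehicle ratios of KRT20 were 1.32 in non-MG and 1.81 in MG cells with this centring.

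**Figure D3:**
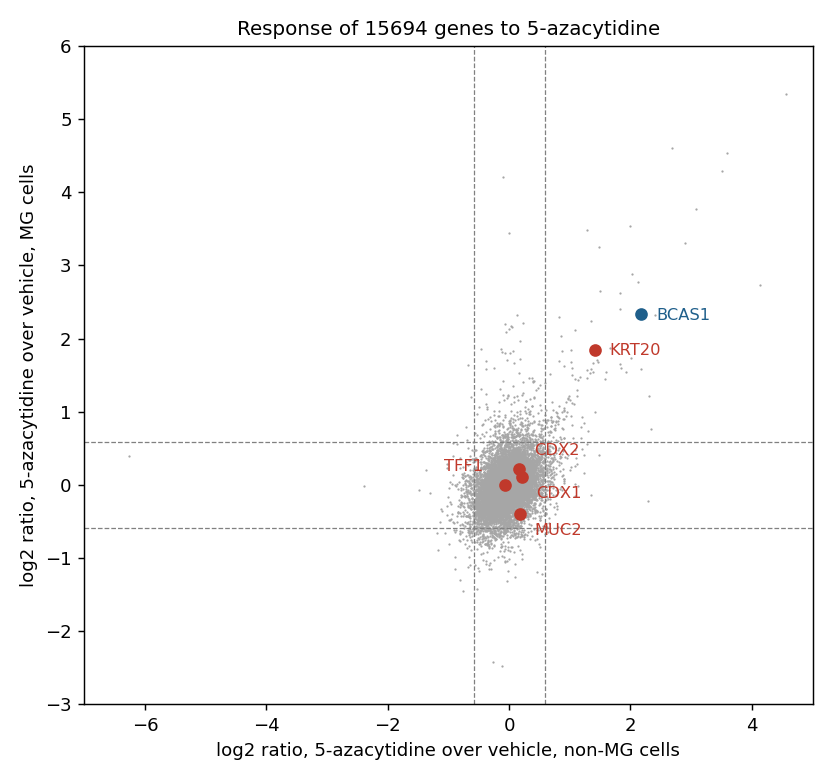
Log2 ratio of 5-azacytidine over vehicle in non-MG cells (x axis) and in MG cells (y axis) for the 15694 genes detected on all 4 arrays, as grey points, with dashed lines at 1.5-fold. KRT20, at 1.42 and 1.85, and BCAS1, at 2.18 and 2.33, lie in the upper right field, and CDX1, CDX2, TFF1 and MUC2 lie within the dashed lines.

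The wider programme around these genes was followed in lists of 107 genes for absorptive cells, goblet and secretory cells, mucins, the CEA family, intestinal transcription factors and gastric cells. Of these, 42 were detected on all 4 arrays. With 5-azacytidine, 1 of the 42 was higher past 1.5-fold in non-MG cells and 2 were higher in MG cells, where 1.89% and 3.01% of all genes were, and 0 were lower in either. In MG cells 1 was higher and 8 were lower than in non-MG cells with vehicle, and 1 was higher and 5 were lower with 5-azacytidine. Of all genes, 5.68% were higher and 8.23% lower with vehicle, and 5.74% and 7.34% with 5-azacytidine. After median centring these were 2 higher and 4 lower with vehicle, and 4 higher and 2 lower with 5-azacytidine. With the percentile over probes detected on all arrays they were 1 higher and 8 lower, and 1 higher and 9 lower. With normexp correction they were 1 higher and 1 lower in each of both comparisons. The balance thus turned under median centring in the comparison with 5-azacytidine and not in that with vehicle. Under normexp correction it was even in both.

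Among absorptive cell genes, 12 of 30 were detected on all arrays and 18 on none. KRT19 and KRT18, keratins of simple epithelia, had the highest levels of the list, with 5-azacytidine/vehicle log2 ratios between -0.03 and 0.20. MYO1A had a 5-azacytidine/vehicle log2 ratio of 0.78 (spot error 0.38) in MG cells, past 1.5-fold, and of -0.23 (spot error 0.38) in non-MG cells. DPP4, a peptidase of the brush border, was lower in MG cells, with log2 ratios of -0.81 with vehicle and -0.73 with 5-azacytidine. Its ratio with 5-azacytidine was short of 1.5-fold with median centring, at -0.47, and with normexp correction both were, at -0.55 and -0.45.

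Among goblet and secretory genes, 9 of 20 were detected on all arrays. BCAS1, a gene of goblet cells, moved like KRT20. Its intensity was 13.3 in non-MG cells with vehicle and 52.2 with 5-azacytidine, and 16.8 and 82.5 in MG cells. The 5-azacytidine/vehicle log2 ratio was 2.18 in non-MG and 2.33 in MG cells, and 0.83 and 0.85 with normexp correction. A second BCAS1 probe was not detected on any array. SYTL2, which takes part in vesicle transport, was lower in MG cells by log2 ratios of -0.82 and -0.88. With normexp correction these were -0.50 and -0.41, short of 1.5-fold. XBP1 and TSPAN13, the highest of the list by mean level, had 5-azacytidine/vehicle log2 ratios from -0.09 to 0.04. TSPAN13 had an MG/non-MG log2 ratio of -0.61 with vehicle and FCGBP, a mucus protein, one of -0.65, both past 1.5-fold there, and both were short of it with 5-azacytidine, at -0.49 and -0.48. With normexp correction or median centring both were short of it with vehicle too.

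Of 14 other mucins, 4 were detected on all arrays. For MUC4 and MUC3A, both membrane mucins, the 5-azacytidine/vehicle log2 ratios ran from -0.11 to 0.03. A further MUC3A probe was detected in non-MG cells with vehicle alone, at 17.3. It was at least 1.71-fold higher there than in MG cells with vehicle. Against non-MG cells with 5-azacytidine it was at least 1.32-fold higher. MUC1 and MUC6 were lower past 1.5-fold in MG cells with vehicle, with log2 ratios of -0.85 and -0.72, and were short of it with 5-azacytidine, at -0.39 and -0.54. With normexp correction both were short of it with vehicle too, and with median centring MUC6 was. In the CEA family, 3 of 11 genes were detected on all arrays. CEACAM1, a cell adhesion protein of epithelium and immune cells, was higher in MG cells. Its intensity was 34.4 in non-MG and 180 in MG cells with vehicle, and 38.0 and 148 with 5-azacytidine. The MG/non-MG log2 ratios were 2.21 (spot error 0.15) and 1.60 (spot error 0.15), and they passed 1.5-fold with each scaling, at 1.18 and 0.83 with normexp correction. The second CEACAM1 probe was not detected on any array. CEACAM19 and CEACAM20, the highest of the family by mean level (log2) over the 4 arrays, had MG/non-MG ratios from -0.56 to -0.23.

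Of 20 intestinal transcription factors, 11 were detected on all arrays. ELF3, an ETS factor of epithelial differentiation, was lower in MG cells. Its intensity was 1334 in non-MG and 710 in MG cells with vehicle, and 888 and 587 with 5-azacytidine. The log2 ratios were -1.09 and -0.96, and they passed 1.5-fold under each scaling, at -0.90 and -0.70 with median centring and -1.01 and -0.69 with normexp correction. TCF7L2, the nuclear partner of beta-catenin in Wnt signalling, was lower as well, with log2 ratios of -0.69 and -0.79 over 2 probes. These were -0.49 and -0.53 with median centring, short of 1.5-fold, and -0.43 and -0.39 with normexp correction. A further TCF7L2 probe was detected in non-MG cells alone and was at least 2.02-fold lower in MG cells with vehicle and at least 2.04-fold lower with 5-azacytidine. KLF4, picked after its values were seen, had MG/non-MG log2 ratios of -0.36 (spot error 0.12) with vehicle and -0.68 (spot error 0.12) with 5-azacytidine. The second passed 1.5-fold, but was short of it with normexp correction and with median centring. VDR, the vitamin D receptor, had ratios from -0.14 to -0.01 in all 4 comparisons. Of the gastric genes, 3 of 12 were detected on all arrays and 9 on none. TFCP2L1 and PSCA, the brightest of these, had 5-azacytidine/vehicle log2 ratios from 0.22 to 0.52.

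FOXA2, a pioneer factor of gut endoderm, was singled out after its values were seen, and was detected on 3 arrays. Its intensity was 5.77 in non-MG cells with vehicle, 18.8 in non-MG cells with 5-azacytidine, 15.5 in MG cells with vehicle and 52.6 in MG cells with 5-azacytidine. The 5-azacytidine/vehicle log2 ratio in MG cells was 1.79, and the MG/non-MG log2 ratio with 5-azacytidine was 1.12. FOXA2 was at least 1.36-fold higher in MG than in non-MG cells with vehicle and at least 2.17-fold higher with 5-azacytidine in non-MG cells. MAF, of the same list, and ERN2, of the goblet list, were also detected on 3 arrays. MAF had an MG/non-MG log2 ratio of -0.34 (spot error 0.28) with 5-azacytidine and was not detected in MG cells with vehicle. SPDEF, the transcription factor of goblet cell maturation, also chosen after its values were seen, was detected at 24.5 in non-MG cells with 5-azacytidine alone and lay between 6.18 and 11.1 elsewhere.

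**Figure D4:**
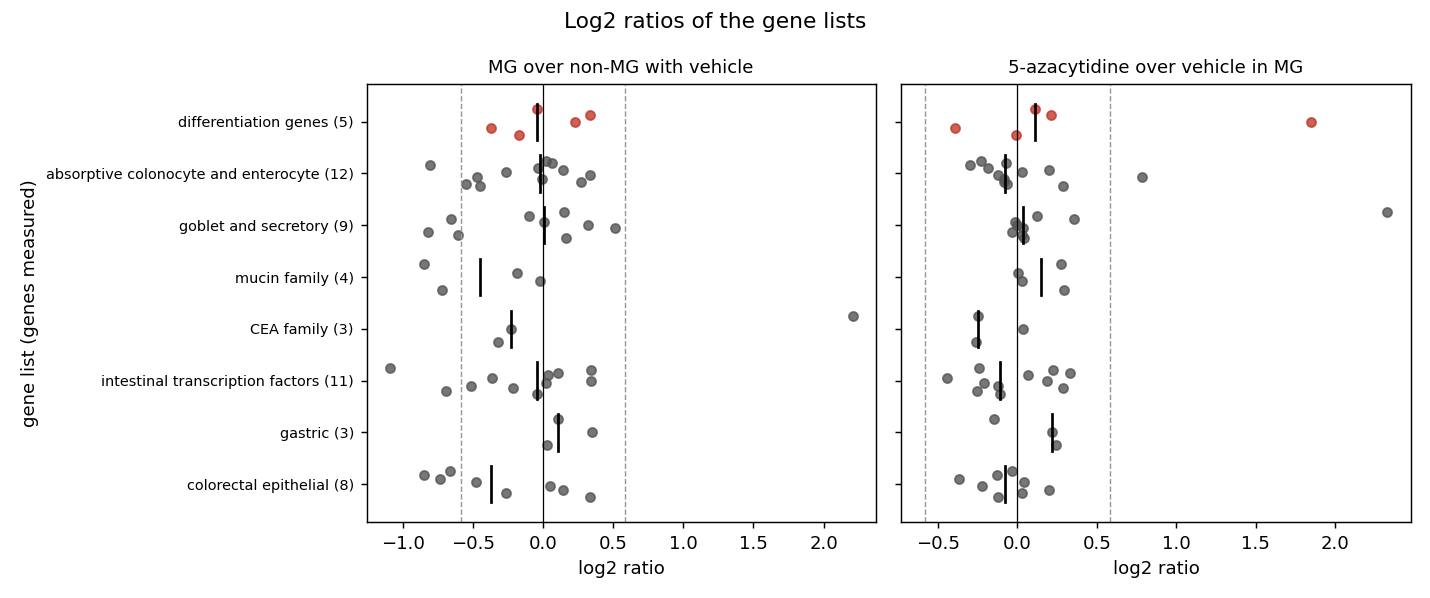
Log2 ratios of the genes detected on all 4 arrays, by list, for MG/non-MG with vehicle (left) and 5-azacytidine/vehicle in MG cells (right), with a black line at each list's median and dashed lines at 1.5-fold. KRT20, BCAS1 and, at 0.78, MYO1A stand right of the dashed line on the right, and CEACAM1, at 2.21, stands apart on the left.

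Markers of cell types that HCT116 cultures should not hold were read on the same arrays. No array detected 7 of 9 enteroendocrine markers, the 4 matched of 5 Paneth cell markers, 6 of 7 fibroblast markers and 4 of 5 endothelial markers. NEUROG3 of the enteroendocrine, COL1A1 of the fibroblast and VWF of the endothelial markers were detected on all 4 arrays. NEUROG3 stayed within 1.5-fold. COL1A1 had MG/non-MG log2 ratios of -0.92 with vehicle and -0.55 with 5-azacytidine. VWF had 5-azacytidine/vehicle log2 ratios of 0.35 in non-MG and 0.70 in MG cells. The summed signal of each of these lists was at most 1.46 times the 75th percentile on any array. The 1.46 is that of the enteroendocrine list in MG cells with vehicle, the 1 array on which SST, the hormone somatostatin, was detected. SST had an intensity of 51.9 there, at least 4.56-fold higher than in non-MG cells with vehicle and at least 4.29-fold higher than in MG cells with 5-azacytidine. The leukocyte list, with PTPRC and CD3E detected on no array, had sums of 1.27 and 1.01 with vehicle in non-MG and MG cells, and of 1.64 and 1.71 with 5-azacytidine. CD14 was higher with 5-azacytidine in both cell types, with log2 ratios of 0.87 and 1.002, and CD68 had 0.30 and 0.82. With normexp correction CD14 had 0.31 in non-MG and 0.33 in MG cells, short of 1.5-fold. The part of these levels in the results for KRT20, TFF2 and TFF3 was not tested.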

How the data were processed

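Total RNA (400 ng per array) was labelled with Cy3 and hybridized to 4 one-colour Agilent arrays. For RNA isolation RNAiso Plus is given in the labels and an RNeasy kit in the methods. Agilent Feature Extraction 11.5.1.1, per the file headers, gave the deposited spot values, background-corrected and linear in intensity, not yet normalized across arrays. A second table deposited by the authors, with log2 values of 24189 probes centred per probe, served as an alternative. Control spots and outlier flags were left out (50599 to 50594 probes), spots of a probe were averaged, and log2 intensity minus each array's 75th percentile was compared. Probes were named by accession (30000 of 50594), and no coordinates of probes are given because the array design uses an earlier build. Genes named outside the 10 are those past 1.5-fold in the same direction in both cell type comparisons or both drug comparisons, and the 2 of each list with the highest mean level. Others, among them neighbouring genes, FOXA2, MAF, ERN2, SPDEF, RETNLB, SST, CD68, CDH1, MYO1A, FCGBP, MUC1 and MUC6, were picked once their values had been seen. So were KLF4, NEUROG3, COL1A1 and VWF. The 10 genes, the lists and the tests were chosen with earlier results of these data known. With 1 array per group no test was made, and the number of arrays limits precision. The calculation was tested on simulated data. Python 3.11.15, numpy 2.4.6, pandas 2.3.3, matplotlib 3.10.9, R 4.3.3 and limma 3.58.1 were used.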

Additional observations from a re-analysis of the deposited data

Results flagged for a closer look

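The 5-azacytidine/vehicle log2 ratio of MUC2, by its probe detected on every array, was 0.17 in non-MG cells and -0.39 in MG cells, so the computed ratios have opposite signs. The non-MG ratio lies within its spot error of 0.28. The difference, MG minus non-MG, was -0.57 (spot error 0.39) and was not tested, since each group has 1 array. With normexp correction the ratio in MG cells was -0.01, and with signals raised to the detection limit it was -0.08.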

How the results depend on the processing

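Each value of the 5 genes detected on all 4 arrays was recomputed with normexp background correction (offset 50, on the median spot intensity), quantile normalization, median centring, every matched probe, signals raised to the detection limit, the authors' values, the brightest probe, and thresholds of 2-fold and 1.4-fold. Every matched probe takes in 9 genes, with VIL1 and CEACAM5, which no array detected, and the detection limit takes in 7, with TFF2 and TFF3, so their counts and medians are over other genes than the 5. The 75th percentile over probes detected on all 4 arrays was added after seeing the data. Of 160 alternative ratios of single genes, 146 moved by less than the spot error, 14 moved by more, and 0 turned direction among those past 1.5-fold. Some of the 160 could not move, so the 146 overstate stability. Each of the 5 genes had 1 probe detected on all arrays, so the brightest probe gave the main value. Every matched probe did so for CDX2, KRT20 and TFF1, with 1 probe each. The detection limit did so for these 3 genes and CDX1. Under vehicle, the count of genes past 1.5-fold between the cell types was 0, but 2 with every matched probe, and the median of -0.04 became 0.21. With 5-azacytidine the count of 2 became 0 with normexp, 0 at 2-fold, 1 at the detection limit, 1 with the percentile over detected probes and 3 with median centring, and the median of -0.11 became 0.15 with median centring and 0.17 at the detection limit. For the treatment in non-MG cells the count of 1 became 0 with normexp and 3 with every matched probe or at the detection limit, and in MG cells it became 4 with every matched probe and 3 at the detection limit. Over the 42 genes of the wider lists, normexp gave 1 lower gene in place of 8 with vehicle and of 5 with 5-azacytidine in MG cells. Spot error limits ratios of dim probes most, which reached 0.59 for log2 intensities from 2 to 3, against 0.05 for those above 10. No paired analysis was possible because the labels give the groups no replicate numbers to share, and an additive fit over cell type and treatment was not made. Slide could not be fitted because there is 1 slide.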

Other observations

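The genes next to the 10 differentiation genes in RefSeq order, 3 on each side, were read as context. Of 42 such neighbours that are not among the 10, 15 were detected on all 4 arrays. With 5-azacytidine, 1 of the 15 was higher past 1.5-fold in non-MG cells, CNOT9 beside VIL1 with a log2 ratio of 0.90, which was 0.06 in MG cells. In MG cells 1 was higher as well, PLCD4 beside VIL1 with 0.66, which was 0.05 in non-MG cells. Of all genes 1.89% were higher in non-MG and 3.01% in MG cells. KRT23, the keratin gene next to KRT20, had 0.18 in non-MG and 0.45 in MG cells, and KRT10, a further keratin gene there, had -0.14 and -0.11. RETNLB, a goblet cell peptide chosen after its values were seen, was detected on both MG arrays alone, with intensities of 15.8 with vehicle and 11.9 with 5-azacytidine, against 6.71 and 4.89 in non-MG cells. It was at least 1.39-fold higher in MG cells with vehicle. With 5-azacytidine no bound could be given, as the signal in MG cells lay near the lowest detected one of that array, 11.8.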
